A study of Homo sapiens with 12 samples.

Results

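The 32 genes described here act in mitosis. They were chosen by name from known function and not by a rule on their values, though earlier results of these data were known. The counts of 200 bp bins were summed over each gene's annotated span on its own strand, which gave a value for all 32 of the 28400 coding and long non-coding genes whose strand was known. The cells were K562, an established human leukaemia line, and the labels of the RNA libraries call them wild type. No label names a perturbation or a synchronisation of the cultures. The 4 RNA groups of 2 libraries each came from cells given 4-thiouridine (4sU) at 500 µM for 5 min. TT-Seq libraries held labelled RNA that was sheared before purification, 4sU-Seq libraries held labelled RNA purified without shearing, Total RNA-Frag-Seq libraries, called sheared total RNA from here on, held sheared RNA without purification, and Total RNA-Seq libraries held RNA with neither step. The S2P ChIP group had 2 libraries made with an antibody to RNA polymerase II phosphorylated at serine 2 of its C-terminal repeat, and the N20 ChIP group had 2 made with the N-20 antibody to RNA polymerase II, all crosslinked for 7.5 min. The study's text calls the RNA libraries biological duplicates; for the ChIP libraries nothing used here says whether the pairs were separate cultures, so that their p-values may measure a technical spread.

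Genes of this group are switched on in G2 and mitosis and are low in resting and G1 cells. In earlier phases the DREAM complex holds many of them down through a promoter element called the CHR (cell cycle genes homology region), and NF-Y, which binds CCAAT boxes, together with B-MYB and FOXM1, drives them later. Cyclin A2, cyclin B1 and CDK1 start mitosis, the Aurora and Polo-like kinases build the spindle, the checkpoint proteins hold back CDC20 until all chromosomes are attached, and separase then cuts cohesin. In a growing culture only some cells are in these phases, so that each library mixes cells that do and do not express the genes. Fewer expressing cells and less RNA per cell cannot be told apart in such libraries.

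The promoters were examined first, because a shared element is what the group's regulation is known for and the choice of the genes did not use it. RefSeq promoters on GRCh38.p14, running from 250 bases before the annotated start to 50 bases from it, were matched by symbol for 28 of the 32 genes. The CCAAT box was searched as CCAAT and its reverse complement ATTGG, and the CHR as TTTGAA or TTCAAA and as TTTAAA, which is its own reverse complement. A CCAAT box was found in 21 of the 28 promoters (75%), against 36.4% of 15842 coding promoters of the same length. TTTGAA on either strand was found in 20 (71.4%, against 12.1%) and TTTAAA in 10 (35.7%, against 9.7%). Either form of the CHR stood in 24 of the 28 (85.7%, against 19.5%), and a CCAAT box and a CHR together in 18 (64.3%, against 7.95%). In 20 promoters (71.4%, against 5.92%) a CHR match began between 60 bases before and 40 bases after the annotated start. The same search found either form in 66.7% of 39 promoters of other mitotic regulators, 41.4% of 29 of centromere, kinetochore and checkpoint genes, 50% of 16 of condensin and cohesin subunits, 26.7% of 15 of anaphase-promoting complex subunits and 6.82% of 44 of DNA replication genes. The shares of CCAAT boxes differed less between these lists, at 69.2%, 69%, 43.8%, 33.3% and 56.8% in the same order. A match of such short letters is a description of the window and not a binding site.

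The 6 promoter stretches below are shown because their genes carry the results that follow. Each runs from 170 bases before the annotated start to 30 bases from it, 5′ to 3′ on the gene's strand, with CCAAT or ATTGG and each form of the CHR in capitals. They lie at chr1:43358811-43359010 on the plus strand for CDC20, chr5:69166980-69167179 on the plus strand for CCNB1, chr5:138178942-138179141 on the plus strand for KIF20A, chr10:128126394-128126593 on the minus strand for MKI67, chr18:2571387-2571586 on the plus strand for NDC80 and chr4:1720461-1720660 on the plus strand for TACC3.
CDC20: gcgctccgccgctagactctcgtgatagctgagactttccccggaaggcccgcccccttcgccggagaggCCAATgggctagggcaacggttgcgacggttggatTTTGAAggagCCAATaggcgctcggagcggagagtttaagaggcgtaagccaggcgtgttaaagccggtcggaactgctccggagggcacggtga
CCNB1: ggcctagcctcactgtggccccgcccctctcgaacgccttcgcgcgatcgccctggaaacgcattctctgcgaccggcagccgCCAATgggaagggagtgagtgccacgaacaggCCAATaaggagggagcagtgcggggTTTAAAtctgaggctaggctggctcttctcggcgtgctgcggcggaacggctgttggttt
KIF20A: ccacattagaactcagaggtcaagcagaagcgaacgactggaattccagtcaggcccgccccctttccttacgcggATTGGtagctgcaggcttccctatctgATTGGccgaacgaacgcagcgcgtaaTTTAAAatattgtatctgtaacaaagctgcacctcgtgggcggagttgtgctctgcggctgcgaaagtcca
MKI67: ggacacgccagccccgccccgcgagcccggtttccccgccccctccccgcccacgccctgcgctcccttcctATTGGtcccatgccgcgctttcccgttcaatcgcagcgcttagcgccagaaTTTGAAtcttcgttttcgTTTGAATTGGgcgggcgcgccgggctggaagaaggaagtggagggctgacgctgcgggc
NDC80: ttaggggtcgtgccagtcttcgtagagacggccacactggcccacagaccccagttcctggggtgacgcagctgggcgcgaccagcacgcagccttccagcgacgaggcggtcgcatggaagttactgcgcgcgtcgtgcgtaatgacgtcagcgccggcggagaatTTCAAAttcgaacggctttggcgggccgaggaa
TACC3: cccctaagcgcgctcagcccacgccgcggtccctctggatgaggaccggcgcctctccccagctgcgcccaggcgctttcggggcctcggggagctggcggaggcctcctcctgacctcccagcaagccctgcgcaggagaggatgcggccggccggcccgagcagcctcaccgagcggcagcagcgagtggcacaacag
CDC20, CCNB1 and KIF20A each have a pair of CCAAT boxes, and a CHR stands between the boxes in CDC20 and nearer the start in the other two. The MKI67 stretch has 2 TTTGAA matches, and the second runs into an ATTGG. NDC80 has a single match, TTCAAA, close to the start, and TACC3 has none of these letters in the stretch.

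As a fact of all 12 libraries, the binned counts summed to 25909021 to 71317148 in the RNA libraries and 12598494 to 73660126 in the ChIP libraries. The 7 markers of the K562 line that could be summed, GATA1 and TFRC among them, added up to 53.0 to 59.0 CPM per kb (counts scaled to library size by TMM and divided by the span) in the RNA libraries, and 7 markers of other cell types to 0.858 to 2.46. The keratin gene KRT5 was at 0 in all 8 RNA libraries. In the ChIP libraries the markers of other cell types did not add up to near 0, at 10.6 and 9.84 CPM per kb in S2P and 9.45 and 8.38 in N20. Those with almost no RNA differed from each other. ALB had 0.181 and 0.131 in S2P and 0.221 and 0.288 in N20, and KRT5 stood near 1 in both. CD14 had 2.86 and 2.87 in S2P and 3.92 and 2.42 in N20. ChIP levels over this whole range were thus also seen at genes with almost no RNA.

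The mitotic genes were well transcribed for coding genes but spread widely. Their median TT-Seq level was 3.04 CPM per kb, against 1.10 over 13157 coding genes, and their ranks ran from the 49.6th to the 97.6th percentile with a median of 83.7. The checkpoint kinase BUB1 was the highest, at 9.56 and 9.52 CPM per kb in the TT-Seq libraries. CDK1, the mitotic kinase itself, followed with 6.97 and 6.73. CCNA2, which encodes cyclin A2, had 6.90 and 6.26, and TOP2A, the topoisomerase that untangles sister chromatids, had 6.72 and 6.51. The CCNA2 libraries overlapped those of CDK1 and TOP2A, and the lower CDK1 library was only just above the higher TOP2A library. CDC20, the activator of the anaphase-promoting complex, had 5.73 and 5.97, and cyclin B1 (CCNB1) stood just below it at 5.67 and 5.62. The lowest was the separase gene ESPL1 at 1.07 and 1.08, below DLGAP5, a spindle protein, at 1.45 and 1.45. In Total RNA-Seq the order was another: CDC20 led with 18.5 and 19.8 CPM per kb, ahead of CCNA2 with 12.6 and 13.2 and of MKI67, the proliferation marker Ki-67, with 11.1 and 11.7.

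**Figure D1:**
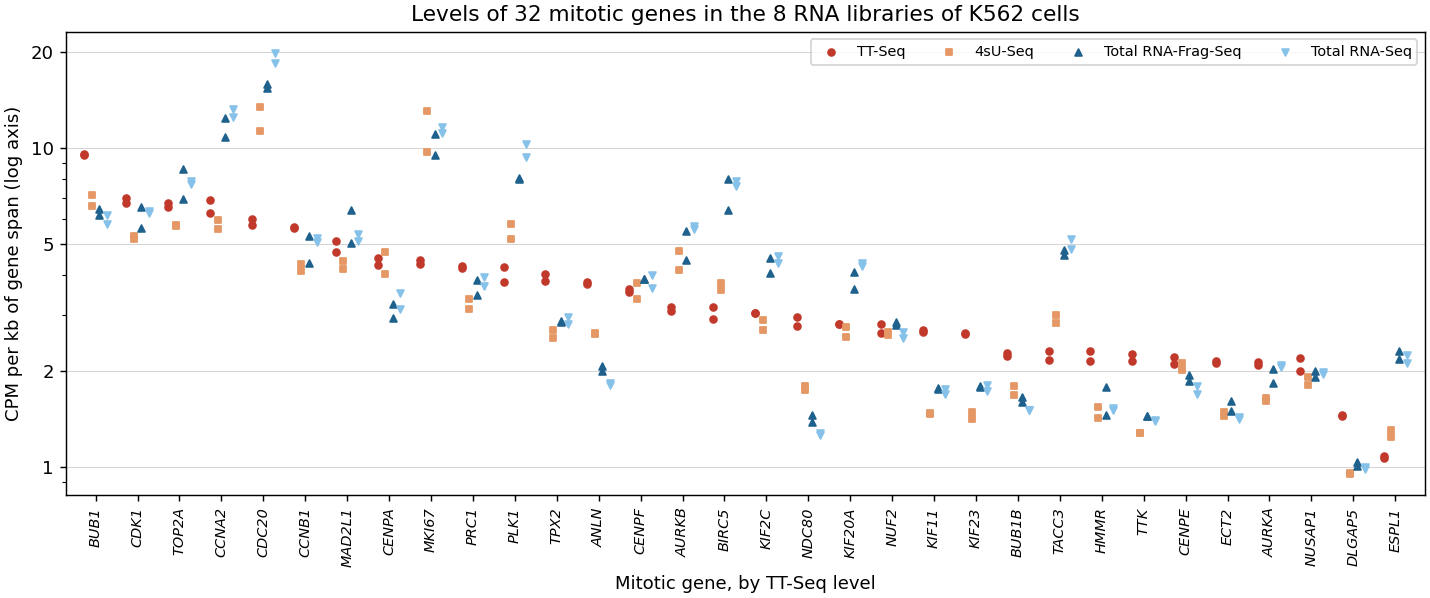
Level of each of the 32 mitotic genes in CPM per kb of gene span on a log axis, with 1 point per library and 4 groups of 2 libraries side by side, ordered by the TT-Seq mean. BUB1, at 9.56 and 9.52 CPM per kb, is at the left end and ESPL1, at 1.07 and 1.08, at the right end of TT-Seq, while CDC20 and CCNA2 stand far higher in total RNA than in TT-Seq.

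Setting TT-Seq against sheared total RNA asks which genes make up more of the RNA labelled within 5 min than of all RNA, with both kinds sheared. By edgeR's quasi-likelihood F-test and Benjamini-Hochberg adjustment over 17055 genes, 16 of the 32 mitotic genes were higher in TT-Seq (all genes: 32.8%), 12 were lower (33.3%) and 4 were not called, with a median log2 fold change of 0.15, against -0.02 for all genes. The genes thus parted in both directions. Of the motor genes, KIF11, KIF23 and CENPE were higher, and KIF20A and KIF2C lower. When the counts were summed over the authors' transcriptional units, which join some genes to neighbours and run past annotated ends, the split was 7 higher and 20 lower, so that the share of higher genes holds for annotated spans alone.

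CDC20 (chromosome 1, 43358981 to 43363203, plus strand) had the strongest shortfall. It measured 5.73 and 5.97 CPM per kb in TT-Seq, against 15.9 and 15.4 in sheared total RNA. Both TT-Seq values were below both others, and the log2 fold change was -1.42 ± 0.09 (SE, adjusted p = 9.55e-10). BIRC5 (chromosome 17, 78214253 to 78225635, plus strand), which encodes survivin, the chromosomal passenger protein, measured 2.90 and 3.18 in TT-Seq, against 8.00 and 6.42 in sheared total RNA (-1.25 ± 0.09, adjusted p = 1.44e-08). MKI67 (chromosome 10, 128096659 to 128126423, minus strand), which coats mitotic chromosomes, measured 4.33 and 4.44, against 9.53 and 11.04 (-1.23 ± 0.13, adjusted p = 1.42e-05). In neither gene did the groups overlap. TACC3 (chromosome 4, 1720631 to 1745171, plus strand), a clathrin-binding spindle protein, measured 2.17 and 2.31, against 4.62 and 4.80 (-1.07 ± 0.07). ESPL1 measured 1.07 and 1.08, against 2.31 and 2.18 (-1.06 ± 0.07). The Polo-like kinase PLK1 came next, with 3.79 and 4.25 in TT-Seq, against 8.03 and 8.07 in sheared total RNA (-1.0 ± 0.08), again with no overlap.

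NDC80 (chromosome 18, 2571557 to 2616635, plus strand), the subunit that gives the kinetochore's microtubule-binding complex its name, was the gene most in excess. It measured 2.95 and 2.77 CPM per kb in TT-Seq, against 1.38 and 1.46 in sheared total RNA, a log2 fold change of 1.01 ± 0.07 (adjusted p = 1.83e-09). Its partner in that complex, NUF2, did not pass the test, with 2.81 and 2.62, against 2.78 and 2.84 (-0.05 ± 0.06), and its groups overlapped. ANLN (chromosome 7, 36389862 to 36453791, plus strand), the contractile ring protein anillin, measured 3.79 and 3.76, against 2.00 and 2.08 (0.89 ± 0.06, adjusted p = 1.50e-09). TTK, the checkpoint kinase also called MPS1, measured 2.27 and 2.16, against 1.44 and 1.45 (0.61 ± 0.07). KIF11, the motor that pushes spindle poles apart, measured 2.64 and 2.69, against 1.76 and 1.76 (0.60 ± 0.06). BUB1 measured 9.56 and 9.52, against 6.46 and 6.18 (0.59 ± 0.06). All 5 were called, and none had overlapping groups. In BUB1, TTK and the related BUB1B (0.47 ± 0.06) the checkpoint kinases therefore went the other way from the Aurora kinase AURKB (-0.67 ± 0.10) and PLK1, while AURKA (0.12 ± 0.07, adjusted p = 0.155) was not called.

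The mitotic cyclins parted as well. CCNA2 was lower in TT-Seq, with 6.90 and 6.26 CPM per kb, against 12.4 and 10.8 in sheared total RNA (-0.82 ± 0.08). CCNB1 was slightly higher (0.22 ± 0.08, adjusted p = 0.0281), and so was CDK1 (0.17 ± 0.07, adjusted p = 0.0422), and both values turned to -0.16 and -0.03 over the authors' units. Both calls were lost without TT-Seq replicate 1, without TT-Seq replicate 2 or without sheared total RNA replicate 2. Over the same units KIF23 was at -1.27, NUSAP1 at -0.95, HMMR at -0.80, AURKA at -0.27, CENPE at -0.25, CENPA at -0.23 and PRC1 at -0.06, all with the opposite sign to that over the spans; the KIF23 unit runs on into the neighbouring ribosomal protein gene RPLP1. NDC80, ANLN, TTK, KIF11, BUB1, BUB1B, ECT2, TPX2 and DLGAP5 did not turn in this way.

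Setting 4sU-Seq against Total RNA-Seq asks the same of RNA that was never sheared, in 4 other libraries. Here 6 of the 32 genes were higher in 4sU-Seq (all genes: 28%), 17 were lower (27.9%) and 9 were not called, with a median log2 fold change of -0.23, against 0.01 for all genes; over the authors' units the counts were 2 and 26. CCNA2 stood lowest. It measured 5.59 and 5.95 CPM per kb in 4sU-Seq, against 12.6 and 13.2 in Total RNA-Seq (-1.16 ± 0.08, edgeR adjusted p = 2.07e-08). BIRC5 measured 3.58 and 3.77, against 7.86 and 7.58 (-1.07 ± 0.09). PLK1 measured 5.21 and 5.77, against 9.40 and 10.3 (-0.84 ± 0.08). TACC3 (-0.78 ± 0.07) and ESPL1 (-0.77 ± 0.08) completed the 5 lowest, and in each of these 5 genes both 4sU-Seq libraries were below both Total RNA-Seq libraries. Higher in 4sU-Seq were ANLN, with 2.64 and 2.61 CPM per kb, against 1.81 and 1.83 (0.53 ± 0.06), and NDC80, with 1.79 and 1.75, against 1.26 and 1.28 (0.48 ± 0.07). CENPA, the histone variant that marks centromeres, followed with 4.74 and 4.04, against 3.13 and 3.51 (0.41 ± 0.10), then the kinetochore motor CENPE (0.24 ± 0.06), BUB1B (0.20 ± 0.06) and BUB1 (0.20 ± 0.06). The calls of BUB1B and BUB1 were lost without 4sU-Seq replicate 1, and that of BUB1 also without Total RNA-Seq replicate 1. Over the authors' units CENPA was at -0.32, CENPE at 0 and, of the genes not called, ECT2 at -0.15 and NUF2 at -0.16.

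The purification comparisons have no library in common, so that their calls can be set side by side. All 6 genes called higher in 4sU-Seq were also called higher in TT-Seq, where they were 37.5% of the 16; over all genes the shares were 71.3% and 60.8%. Of the genes called lower, 11 were shared, which was 64.7% of the 17 in 4sU-Seq and 91.7% of the 12 in TT-Seq, against 68.3% and 57.3% over all genes. KIF11, KIF23, CCNB1, CDK1 and PRC1 were called higher in TT-Seq and lower in 4sU-Seq. None of the 32 had the reverse pattern; among all 17055 genes 344 had the first pattern and 380 the reverse.

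The fold changes of both comparisons followed the length of the genes. Spearman's rho between the span and the log2 fold change was 0.60 for TT-Seq against sheared total RNA and 0.67 for 4sU-Seq against Total RNA-Seq across the 32 genes, and 0.40 and 0.35 across 13157 coding genes; genes share the libraries, and these values are descriptions. The trend was also seen where nothing was purified. For sheared total RNA against Total RNA-Seq rho was 0.74 across the 32 genes and 0.50 across the coding genes. For TT-Seq against 4sU-Seq it was 0.52 and 0.37. The shortest gene, CDC20 with 4.22 kb, and AURKB with 5.85 kb were on the lower side in both purification comparisons. ANLN with 63.9 kb and BUB1B with 60.1 kb were on the upper side. CENPA was the exception among short genes, with 8.53 kb and a higher level in both labelled groups. Genes of like length still differed widely. In TT-Seq against sheared total RNA MKI67, with 29.8 kb, was at -1.23 ± 0.13, TOP2A, with 29.4 kb, at -0.23 ± 0.08, PRC1, with 28.5 kb, at 0.22 ± 0.07, and HMMR, the hyaluronan receptor that also binds spindle microtubules, with 31.3 kb, at 0.46 ± 0.09. Exons and introns were not counted apart here.

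**Figure D2:**
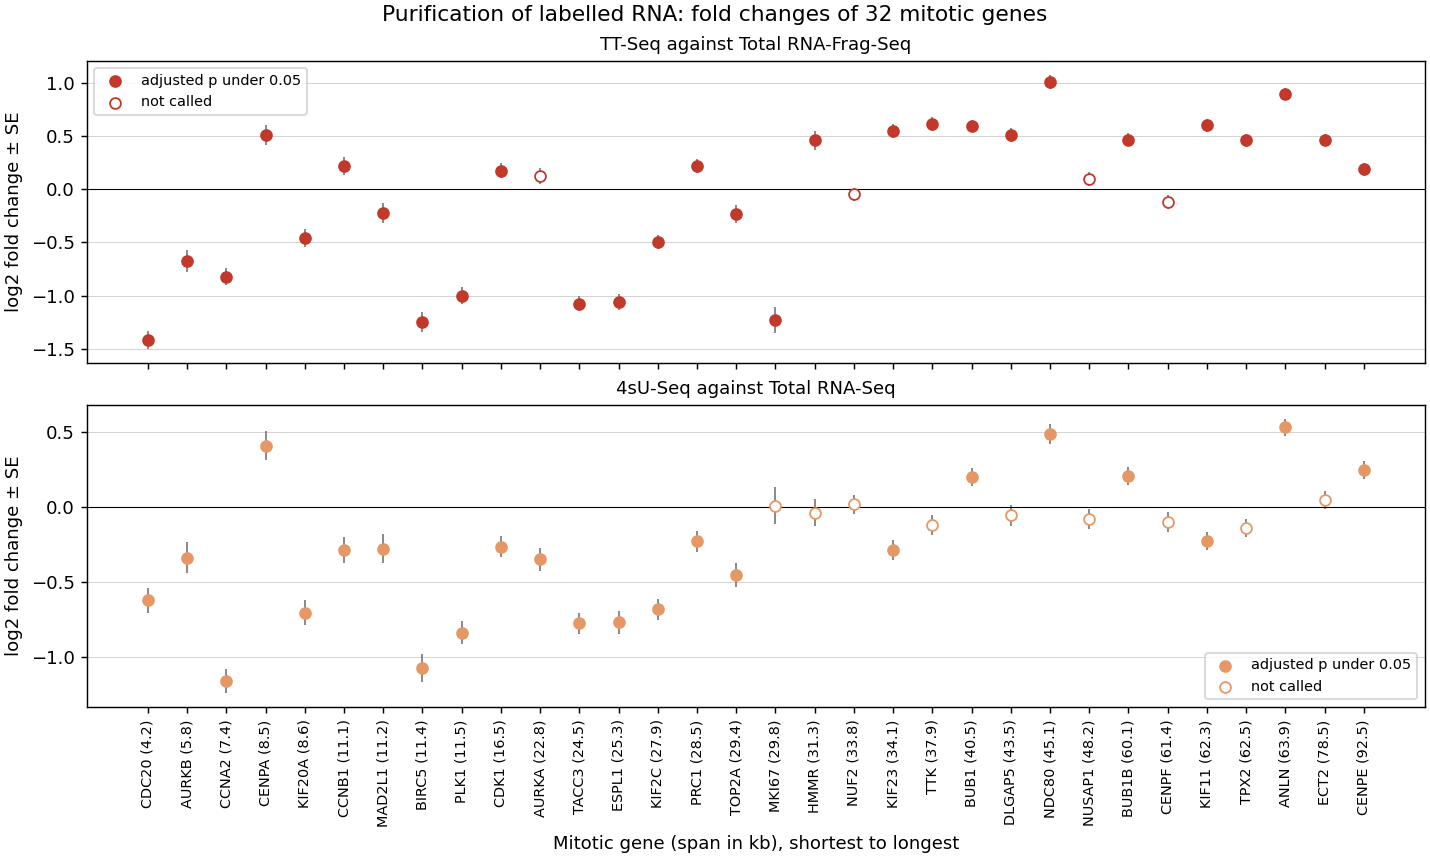
Log2 fold change with its standard error for each mitotic gene, ordered from the shortest to the longest span (kb beside each name), for TT-Seq against sheared total RNA in the upper panel and 4sU-Seq against Total RNA-Seq in the lower panel; filled points had an adjusted p under 0.05. CDC20, at the short end, lies at -1.42 and -0.62, and ANLN, at the long end, at 0.89 and 0.53.

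TT-Seq against 4sU-Seq compares labelled RNA purified after shearing with labelled RNA purified whole, and it reuses libraries of both comparisons above. Of the 32 genes 17 were higher in TT-Seq (all genes: 28.6%), 7 were lower (28.7%) and 8 were not called; the median was 0.20, against -0.03 for all genes, and 0.03 when libraries were scaled by their size alone, a scaling that moves the median of all genes to -0.19. The motors KIF11 and KIF23 led. KIF11 measured 2.64 and 2.69 CPM per kb in TT-Seq, against 1.46 and 1.48 in 4sU-Seq (0.86 ± 0.06, edgeR adjusted p = 9.40e-09). KIF23, the motor of the central spindle, measured 2.64 and 2.62, against 1.48 and 1.42 (0.86 ± 0.07, and -0.64 over its unit). TTK (0.79 ± 0.07), NDC80 (0.69 ± 0.06) and DLGAP5 (0.60 ± 0.07) followed, and in each of these 5 genes the TT-Seq libraries were above the 4sU-Seq libraries.

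MKI67 had the widest gap in the other direction, and its unsheared labelled libraries differed from each other. It measured 4.33 and 4.44 CPM per kb in TT-Seq, against 13.1 and 9.75 in 4sU-Seq (-1.38 ± 0.13, edgeR adjusted p = 8.39e-06). The 4sU-Seq values were near those in Total RNA-Seq, 11.1 and 11.7, and the difference between 4sU-Seq and Total RNA-Seq was 0.01 ± 0.12 (adjusted p = 0.979), or -0.23 without 4sU-Seq replicate 1 and 0.21 without 4sU-Seq replicate 2. CDC20 measured 5.73 and 5.97 in TT-Seq, against 11.4 and 13.5 in 4sU-Seq (-1.08 ± 0.09). AURKB (-0.51 ± 0.10), PLK1 (-0.45 ± 0.08) and TACC3 (-0.38 ± 0.07) were the next lowest, with no overlap of libraries in any of them. For MKI67 the 4sU-Seq libraries thus lay on both sides of the Total RNA-Seq libraries, and the TT-Seq libraries below all others.

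Shearing changed little where no RNA was purified. In sheared total RNA against Total RNA-Seq, 1 of the 32 genes was higher (all genes: 17.8%), 2 were lower (10.4%) and 29 were not called, and all 32 lay between -0.29 and 0.16. ANLN was higher, with 2.00 and 2.08 CPM per kb in sheared total RNA, against 1.81 and 1.83 in Total RNA-Seq (0.16 ± 0.06, edgeR adjusted p = 0.0468), a call lost with DESeq2's size factors or its test, with library size alone, without the filter on low counts, with the replicate block and with these 4 libraries alone. CDC20 measured 15.9 and 15.4, against 18.5 and 19.8 (-0.29 ± 0.08), and PLK1 measured 8.03 and 8.07, against 9.40 and 10.3 (-0.29 ± 0.08). With libraries scaled by size alone, which moves the median of all genes to -0.15, the counts were 0 higher and 9 lower; without Total RNA-Seq replicate 2 no gene was called lower, without sheared total RNA replicate 2 PLK1 alone was, and without sheared total RNA replicate 1 there were 4. NDC80, MAD2L1, ECT2 and CENPE, at 0.16, 0.13, 0.13 and 0.12, were the other members at the upper end and were not called.

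Whether shearing altered the purification contrast was tested as an interaction, the log2 fold change of TT-Seq against sheared total RNA minus that of 4sU-Seq against Total RNA-Seq. It was called positive for 16 of the 32 genes (all genes: 18.1%), negative for 4 (23%) and not called for 12, with a median of 0.26 against -0.02 for all genes. KIF23 (0.84 ± 0.09, edgeR adjusted p = 8.23e-06), KIF11 (0.83 ± 0.08), TTK (0.74 ± 0.10), TPX2 (0.60 ± 0.08) and DLGAP5 (0.57 ± 0.10) were at the upper end; TPX2 activates Aurora A on the spindle. MKI67 (-1.23 ± 0.17), CDC20 (-0.79 ± 0.12), TACC3 (-0.30 ± 0.10) and ESPL1 (-0.29 ± 0.11) were the negative ones, and without TT-Seq replicate 1 or without Total RNA-Seq replicate 1 only 2 negative calls were left. The ESPL1 call was lost in 7 of 8 fits that left out a library, and the TACC3 call in 3, those without TT-Seq replicate 1, sheared total RNA replicate 2 or Total RNA-Seq replicate 1. AURKB, at -0.33 ± 0.14, did not pass (adjusted p = 0.0728).

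Where along a gene the counts lay separated the groups more evenly than the levels did. The 5′ share is the percent of a gene's counts that fell between its start and its midpoint. Its median over the 32 genes was 47.5% and 49.8% in the TT-Seq libraries, 44.0% and 43.8% in 4sU-Seq, 34.2% and 37.4% in sheared total RNA and 36.7% and 36.5% in Total RNA-Seq. MAD2L1, the checkpoint protein MAD2, had 46.2% and 51.5% in TT-Seq, against 12.5% and 16.5% in sheared total RNA. BIRC5 had 46.6% and 53.0%, against 18.8% and 26.9%. CENPF, a large kinetochore protein, had 47.4% and 48.1%, against 21.0% and 21.7%. In all 3 genes TT-Seq counts were close to evenly split, and total RNA lay mostly past the midpoint.

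The share was tested as the change in the ratio of 5′ to 3′ counts. Between TT-Seq and sheared total RNA 22 of the 32 genes had a higher 5′ share in TT-Seq (all genes: 51.9%), 5 had a lower one (10.7%) and 5 were not called; the median log2 change was 0.82, against 0.55 for all genes, and of 12075 coding genes 57.8% had a higher share. The log2 change was 2.52 ± 0.15 for MAD2L1 (edgeR adjusted p = 4.74e-10), 1.78 ± 0.20 for BIRC5, 1.76 ± 0.08 for CENPF, 1.68 ± 0.14 for AURKB and 1.64 ± 0.13 for KIF2C, a motor that takes microtubules apart. CDC20 went most strongly the other way, with a 5′ share of 49.7% and 52.3% in TT-Seq, against 65.9% and 71.9% in sheared total RNA (-1.08 ± 0.15, adjusted p = 6.31e-06). NUF2 (-0.48 ± 0.10), CENPE (-0.38 ± 0.07), ECT2, which switches on RhoA for cytokinesis (-0.36 ± 0.09), and BUB1B (-0.24 ± 0.08, not called without TT-Seq replicate 1 or sheared total RNA replicate 2) also had a lower share. BUB1 was not called (-0.13 ± 0.07) and stood at 0.52 when the first and the last of 3 equal parts of the span were compared.

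Between TT-Seq and 4sU-Seq the 5′ share was higher in TT-Seq for 18 of the 32 genes (all genes: 36.2%) and lower for 1 (8.45%), with 13 not called; with the first and last of 3 parts compared, 3 were lower. MKI67 led, with 30.2% and 29.4% in TT-Seq, against 9.82% and 12.3% in 4sU-Seq (1.78 ± 0.10, edgeR adjusted p = 1.59e-08), and the Total RNA-Seq libraries had 11.6% and 10.3%. PRC1, which bundles microtubules of the central spindle, had 51.1% and 51.1%, against 30.1% and 33.2% (1.18 ± 0.11). AURKB (1.07 ± 0.14), TOP2A (0.98 ± 0.08) and MAD2L1 (0.89 ± 0.14, and -0.28 over the outer parts) came next. CDC20 was the gene with a lower share, 49.7% and 52.3% in TT-Seq, against 61.7% and 67.0% in 4sU-Seq (-0.80 ± 0.14); TACC3 (-0.22 ± 0.09, adjusted p = 0.0621), NUF2 (-0.23 ± 0.10), NDC80 (-0.14 ± 0.09) and BUB1B (-0.14 ± 0.08) were below 0 and not called. For MKI67 the 4sU-Seq and Total RNA-Seq shares overlapped.

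**Figure D3:**
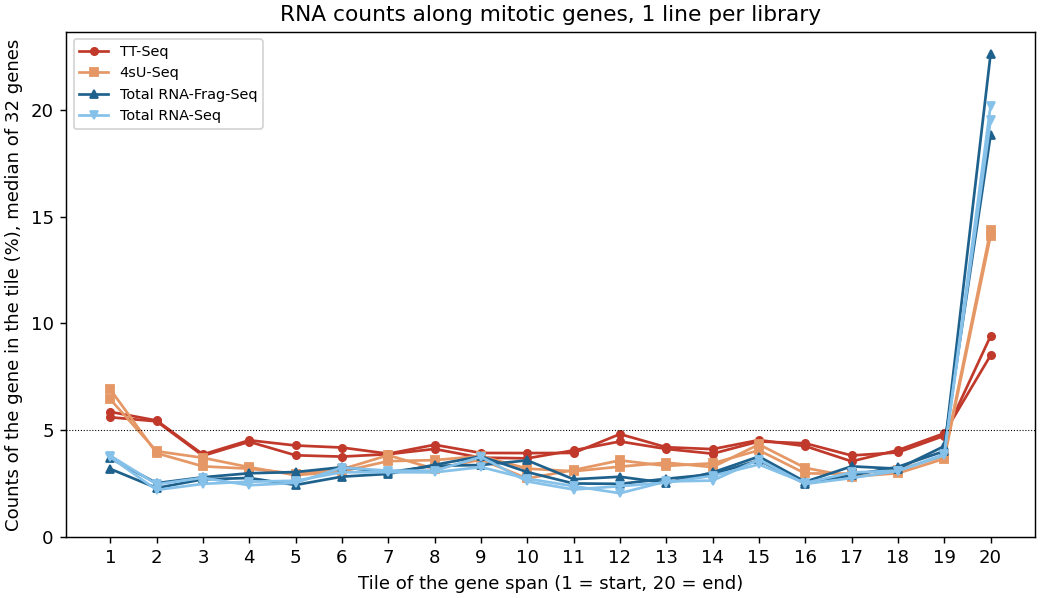
Percent of a gene's RNA counts in each of 20 equal tiles from start to end, as the median of the 32 mitotic genes, with 1 line per library; the dotted line marks an even spread. Every library rises in the last tile, to 9.40 and 8.50% in TT-Seq, 14.1 and 14.4% in 4sU-Seq, 22.6 and 18.8% in sheared total RNA and 20.2 and 19.5% in Total RNA-Seq.

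RNA made past the poly(A) site is cut off and degraded after cleavage. RNA after the annotated end can hold this part but need not be it alone. It was measured as counts per kb in the 5 kb after the end, as a percent of the counts per kb of the span, for the 24 genes with no other annotated gene in that window on their strand. In all 24 both TT-Seq libraries were above both 4sU-Seq libraries (coding genes: 60.8%). TT-Seq was above sheared total RNA in 22 of 24 (68.7%), with the medians at 22.6% and 20.3% in the TT-Seq libraries, 10.4% and 12.4% in 4sU-Seq and 4.02% and 5.40% in sheared total RNA. CENPF had 71.8% and 72.5% in TT-Seq, 36.7% and 44.4% in 4sU-Seq and 16.1% and 14.3% in sheared total RNA. CDK1 had 76.4% and 79.9% in TT-Seq, 37.5% and 37.7% in 4sU-Seq and 21.9% and 25.9% in sheared total RNA. For CDK1 and CENPF the TT-Seq signal thus ran on after the end at over 70% of its level within the gene. The 9 genes that were called lower in TT-Seq and had a free window did not behave alike. CDC20 had 2.80% and 2.52% in TT-Seq, BIRC5 1.71% and 2.54%, TACC3 5.29% and 3.82% and MKI67 5.82% and 5.37%. In contrast TOP2A had 36.3% and 37.8% and CCNA2 33.3% and 33.2%, and KIF2C, KIF20A and MAD2L1 lay between 14.5% and 21.0%. CENPA was the gene with less in TT-Seq than in sheared total RNA, at 83.3% and 86.7%, against 105% and 122%. DLGAP5, at 62.6% and 54.5%, and TTK, at 50.1% and 47.5%, were also far above the medians in sheared total RNA. What RNA these windows hold was not tested.

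**Figure D4:**
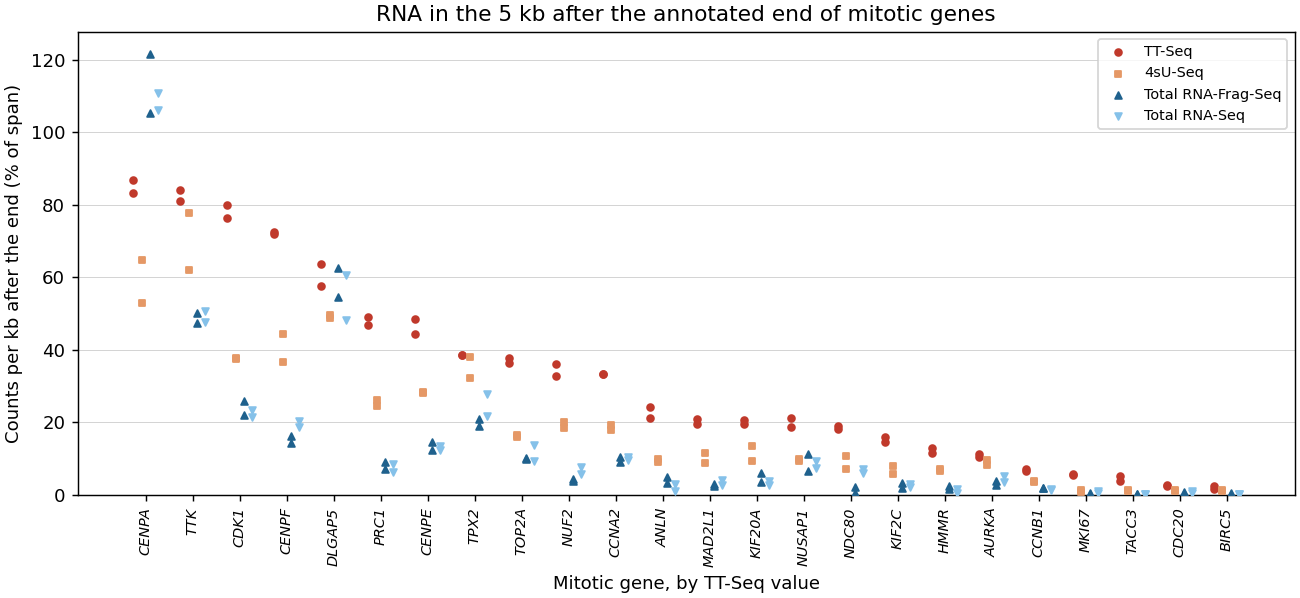
Counts per kb in the 5 kb after the annotated end as a percent of counts per kb of the gene span, for the 24 mitotic genes with a free window, with 1 point per library in 4 groups of 2. TT-Seq is above 4sU-Seq in all 24 genes, from CENPA at 83.3 and 86.7% to BIRC5 at 1.71 and 2.54%.

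RNA in the opposite direction, in the kb before the start, is the short-lived product of divergent initiation. It could be read for 18 genes with no annotated gene on that strand. TT-Seq was above sheared total RNA in 17 of the 18 (coding genes: 56.1%) and 4sU-Seq above Total RNA-Seq in 18 of 18 (50.2%). TPX2 had the most, 8.04 and 7.86 CPM per kb in TT-Seq, against 0.912 and 0.772 in sheared total RNA. KIF2C had 3.19 and 3.08, against 0.412 and 0.502, and CCNB1 had 2.81 and 2.55, against 0.412 and 0.270. In these 3 genes both TT-Seq libraries were above both others, with 139 to 428 counts in TT-Seq. Of the 18 genes 14 were under 1 CPM per kb in TT-Seq, and several orderings rest on few counts. CDK1 had 0.0382 and 0.0367 CPM per kb in TT-Seq, from 2 counts each, and 0 in both sheared total RNA libraries. In 4sU-Seq CENPE had 1 and 2 counts and MKI67 3 and 3, against 0 in both Total RNA-Seq libraries. Binned counts summed to 47092776 or more in each labelled library and to 43136737 or fewer in each total RNA library. A rare RNA thus had more chance of being counted in the labelled libraries, and orderings at such counts are uncertain.

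The RNA polymerase II antibodies were compared over the same spans. In S2P ChIP against N20 ChIP 13 of the 32 genes were higher (all genes: 23.4%), none was lower (20.3%) and 19 were not called, with a median log2 fold change of 0.46, against -0.01 for all genes. Among 13108 coding genes 37.7% were higher and 13.2% lower, with a median of 0.26, so that the share of higher mitotic genes was near that of coding genes. The count of 0 lower genes came from edgeR, with 0 at an unadjusted p under 0.05 and 0 by DESeq2, and it depends on the scaling: with libraries scaled by size alone, which moves the median of all genes to -0.51, 7 were higher and 4 lower, and without N20 replicate 1 the number higher was 7. TACC3 was the highest, with 11.9 and 13.5 CPM per kb in S2P, against 4.31 and 3.88 in N20 (1.64 ± 0.14, edgeR adjusted p = 1.84e-05). CDC20 had 8.55 and 7.75, against 2.77 and 3.12 (1.46 ± 0.18). ESPL1 had 5.09 and 3.95, against 1.96 and 1.63 (1.34 ± 0.17). AURKB (1.27 ± 0.19), BIRC5 (1.27 ± 0.15), PLK1 (1.27 ± 0.17) and KIF2C (1.23 ± 0.15) were also called, and in all 7 genes both S2P libraries were above both N20 libraries. CENPA, at 1.42 ± 0.72, was not; its S2P libraries differed, with 2.17 and 7.70 CPM per kb, against 1.82 and 1.83 in N20.

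These 7 genes, the highest of those called, were all among the 12 genes lower in TT-Seq than in sheared total RNA. Of the other genes called higher in S2P, MKI67 and TOP2A were lower in TT-Seq and KIF11 and PRC1 were higher. CENPF and NUSAP1 were not called there. These S2P calls were less firm when a library was left out. That of KIF11 was lost in 3 of 4 such fits, those of MKI67 and NUSAP1 in 2, and those of TOP2A, PRC1 and CENPF in 1. The calls in TT-Seq against sheared total RNA were lost in 3 of 8 such fits for TOP2A and in 2 for PRC1. The overlap of the 7 genes with the 12 was not counted over all genes. Spearman's rho between the S2P against N20 fold change and the span was -0.57 across the 32 genes and -0.34 across 13108 coding genes. At the lower end stood CDK1, with 0.521 and 0.587 CPM per kb in S2P, against 0.819 and 0.677 in N20 (-0.43 ± 0.23, edgeR adjusted p = 0.153), CENPE (-0.21 ± 0.19), NUF2 (-0.16 ± 0.24), ANLN (0.04 ± 0.15) and HMMR (0.09 ± 0.22), none of them called. Over their spans the median mitotic gene had less ChIP signal than the median coding gene, at 0.810 CPM per kb in S2P and 0.670 in N20, against 1.11 and 0.905. The median percentiles were 40.9 and 38.6, and that of their TT-Seq levels was 83.7. KRT5, which had no RNA counts, stood at 0.98 and 0.99 CPM per kb in S2P and 0.89 and 1.12 in N20. CD14, with at most 0.0772 CPM per kb of RNA, stood at 2.86 and 2.87 in S2P and 3.92 and 2.42 in N20. Ranks at such levels may therefore not measure polymerase.

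N20 signal per kb was higher at the start than in the body of every one of these genes. The level within 500 bp of the start was divided by the level from 1 kb onward to the end. The ratio was above 1 in all 32 genes in both N20 libraries, at 3.12 to 123 in replicate 1 and 4.21 to 93.8 in replicate 2. The share of coding genes above 1 was not counted. A ratio above 1 did not always mean a peak at the start. The highest N20 bin of NDC80 lay 9.2 kb from the start in replicate 1 and 28.8 kb in replicate 2, and that of DLGAP5 21.6 and 13.8 kb. The median of the ratio was 15.6 and 15.5 in N20, against 8.69 and 9.50 over coding genes, and 4.26 and 8.65 in S2P, against 3.37 and 6.12. Both S2P ratios were below both N20 ratios in 28 of the 32 genes (coding genes: 56.6%), and CENPA alone had both above (13.2%), at 16.8 and 55.5 in S2P, against 13.2 and 12.2 in N20. CDK1 had the highest ratio in both N20 libraries, with 11.7 and 36.4 in S2P, against 123 and 93.8 in N20, and its body held 0.238 and 0.146 CPM per kb in S2P, against 0.0872 and 0.0844 in N20. MAD2L1 had 6.47 and 16.2, against 88.0 and 44.3, and BUB1 had 8.85 and 28.4, against 62.0 and 47.8. N20 levels in the bodies of MAD2L1, at 0.176 and 0.301 CPM per kb, and BUB1, at 0.347 and 0.396, were low as well. In all 3 genes they were below the 0.89 and 1.12 of KRT5, which had no RNA counts. CDK1 held 120 and 188 N20 counts over its whole span, 60 and 94 of them in the bin of the start. The size of these ratios is therefore uncertain, and such body levels may not measure polymerase. AURKB was flattest in S2P, with 0.315 and 0.468, against 4.71 and 4.54 in N20, so that its S2P signal was higher in the body than at the start.

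**Figure D5:**
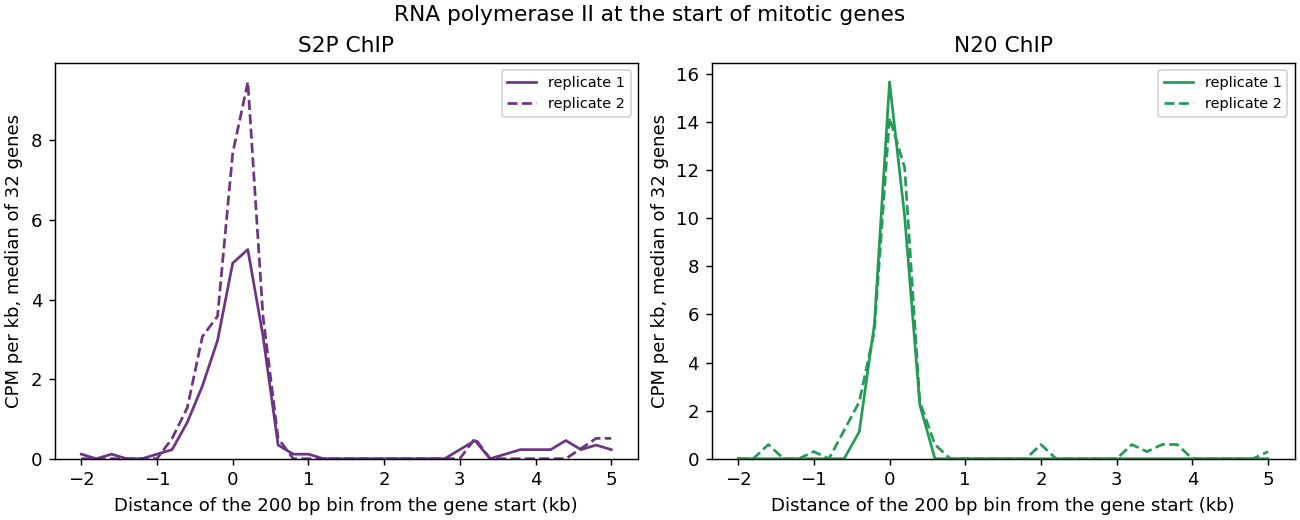
CPM per kb in 200 bp bins from 2 kb before to 5 kb after the gene start, as the median of the 32 mitotic genes, for S2P ChIP at the left and N20 ChIP at the right, with 1 line per replicate; the vertical axes differ. N20 peaks in the bin of the start, S2P in the next bin, and both fall to near 0 within 1 kb.

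Other genes of the mitotic programme were read with the same fit. Of 43 other mitotic regulators and spindle genes 19 were higher and 17 lower in TT-Seq than in sheared total RNA, with a median of 0.01; FBXO5, the inhibitor EMI1 of the anaphase-promoting complex, was the highest (1.38 ± 0.07) and PSRC1, a spindle protein, the lowest (-1.12 ± 0.11). In 4sU-Seq against Total RNA-Seq 8 were higher and 23 lower, from the motor KIF18A (0.70 ± 0.06) to the centrosome kinase NEK2 (-1.03 ± 0.07). In TT-Seq against 4sU-Seq 27 were higher and 7 lower, again from FBXO5 (0.86 ± 0.07) to PSRC1 (-1.21 ± 0.11). Among all coding genes 30.7% were higher and 37.5% lower in TT-Seq than in sheared total RNA. The shares were 24.5% and 33.9% in 4sU-Seq against Total RNA-Seq, and 32.5% and 31.2% in TT-Seq against 4sU-Seq. In S2P against N20 15 of the 43 were higher (coding genes: 37.7%) and 2 lower (13.2%). They ran from CCNF, which encodes cyclin F (1.76 ± 0.14), to PTTG1, the securin gene (-1.71 ± 0.26).

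The counts of the next lists stand beside coding shares of 30.7% higher and 37.5% lower in TT-Seq against sheared total RNA. In 4sU-Seq against Total RNA-Seq those shares were 24.5% and 33.9%. Of 33 centromere, kinetochore and checkpoint genes 12 were higher and 15 lower in TT-Seq than in sheared total RNA, from CENPQ (1.35 ± 0.07) to MAD2L2 (-1.35 ± 0.10). In 4sU-Seq against Total RNA-Seq 7 were higher and 15 lower, from MAD1L1 (1.11 ± 0.06), the partner of MAD2, to SPC24 (-1.13 ± 0.08), a subunit of the NDC80 complex. Of 15 subunits and activators of the anaphase-promoting complex 4 were higher and 9 lower in TT-Seq than in sheared total RNA, from ANAPC10 (0.91 ± 0.06) to ANAPC2 (-1.57 ± 0.09), and 3 were higher and 9 lower in 4sU-Seq than in Total RNA-Seq, from ANAPC10 (0.66 ± 0.07) to ANAPC5 (-0.78 ± 0.06). Of 17 condensin and cohesin subunits 13 were higher and 3 lower in TT-Seq than in sheared total RNA, from the cohesin ring subunit SMC3 (0.84 ± 0.07) to its partner SMC1A (-0.96 ± 0.07), and in 4sU-Seq against Total RNA-Seq 4 were higher and 6 lower, from NCAPD3 (0.34 ± 0.07) to NCAPD2 (-1.43 ± 0.07), both condensin subunits. Of 49 DNA replication and licensing genes 14 were higher and 19 lower in TT-Seq than in sheared total RNA, from the primase subunit PRIM1 (0.87 ± 0.08) to the licensing factor CDT1 (-2.28 ± 0.12). In 4sU-Seq against Total RNA-Seq 6 of these were higher and 26 lower, from CDC45 (0.41 ± 0.06) to CDT1 (-1.32 ± 0.12). CDT1 was also the gene of its list most in excess in S2P against N20 (2.32 ± 0.15), as TACC3 was among the mitotic genes.

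Several of the 32 spans share ground with other genes. KIF20A overlaps CDC23, CCNA2 overlaps EXOSC9, ANLN overlaps MATCAP2, TACC3 overlaps TMEM129, and PRC1 and HMMR overlap antisense genes, all on the opposite strand, which the RNA bins keep apart and the ChIP bins do not. BUB1B shares its strand with the readthrough gene BUB1B-PAK6, and the counts of these cannot be told apart. KIF23-AS1 at KIF23 and ERN2 at PLK1 had no strand here. Of the counts in its span, CDC20 had 15.7% and 14.8% on the opposite strand in TT-Seq, against 1.05% and 1.30% in sheared total RNA. No annotated gene overlaps it there, and the divergent transcript CDC20-DT is annotated upstream of the span. The origin of these counts was not tested. KIF20A had 26.7% and 23.4% and CCNA2 17.2% and 14.3% in TT-Seq.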

How the data were processed

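The authors deposited counts of read fragments in 200 bp bins of hg38, by strand for the 8 RNA libraries and unstranded for the 4 ChIP libraries, per the file headers and the text deposited with them. STAR 2.3.0, Bowtie2 2.1.0 and SAMtools are named in the submitters' processing notes without their roles. The authors also deposited the positions of bins and of transcriptional units, which are coordinates and no measurements. Every ChIP bin held an even count, so counts divided by 2 were tried as an alternative chosen after seeing the data. Bins were summed over RefSeq gene spans (GRCh38.p14, the same build) where at least 100 bp overlapped. Strand came from the promoter table or, for AURKA, TTK, TPX2 and BIRC5, from the authors' unit.

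Tests used edgeR 4.0.16 in R 4.3.3 (filterByExpr, TMM, robust quasi-likelihood F-test, Benjamini-Hochberg adjustment at 0.05), with all 8 RNA libraries in a fit and the 4 ChIP libraries in another, on 17055 and 26807 genes; all 32 members passed the filter. The standard error is the log2 fold change divided by the root of F. The 5′ share was tested with library terms on the counts of both sides of the midpoint. The fits of TT-Seq against sheared total RNA, of S2P against N20 and of the 5′ share of TT-Seq against 4sU-Seq were checked on simulated counts. Other steps were not checked in this way. Purification and sequencing depth are set by each protocol, and total RNA is scaled per library, so that fold changes are relative to the other genes and not amounts per cell. The deposited exon and intron counts and the authors' rates were not used here. Members and lists were chosen with earlier results of these data known. Genes named in depth were the 5 highest and 5 lowest members of a comparison, the 5 highest in TT-Seq level, and the highest and lowest called gene of each other list in the main comparisons. DESeq2 1.42.0, other scalings, no filter, the authors' units, a replicate block and leaving out each library were tried. Same-numbered libraries were compared by the correlation of their deviations from group means, which ran from -0.049 to 0.18 among RNA groups and was -0.03 for ChIP.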

Additional observations from a re-analysis of the deposited data

Results flagged for a closer look

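For 9 mitotic genes, chosen as the 5 highest and the lowest called values, the effect of purification differed between sheared and whole RNA by the interaction test. KIF23, KIF11, TTK, TPX2 and DLGAP5 stood higher after shearing, with interaction values of 0.84 ± 0.09, 0.83 ± 0.08, 0.74 ± 0.10, 0.60 ± 0.08 and 0.57 ± 0.10 on the log2 scale (SE, edgeR adjusted p of 8.23e-06, 3.08e-06, 2.69e-05, 5.23e-05 and 0.00029). MKI67, CDC20, TACC3 and ESPL1 stood lower after shearing, with -1.23 ± 0.17, -0.79 ± 0.12, -0.30 ± 0.10 and -0.29 ± 0.11 (adjusted p of 0.000468, 8.82e-05, 0.0206 and 0.0373). KIF11 and KIF23 were called in opposite directions, higher in TT-Seq than in sheared total RNA and lower in 4sU-Seq than in Total RNA-Seq.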

How the results depend on the processing

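Counts of called mitotic genes were within 1.5 times of those reported under the other settings tried, with these exceptions, whose cause was not tested unless said. The authors' units, some of which hold neighbouring genes, gave 7 higher and 20 lower for TT-Seq against sheared total RNA, 2 and 26 for 4sU-Seq against Total RNA-Seq (7768 of all units higher), and 1 lower for sheared total RNA against Total RNA-Seq (1067 of all units). Library size alone gave 0 higher and 9 lower for sheared total RNA against Total RNA-Seq (all genes 1648 and 3816), and 7 and 4 for S2P against N20 (all genes 3388 and 11807; 22.3% of calls higher, against 53.5%); for TT-Seq against 4sU-Seq 33.9% of calls were higher, against 49.9%. No gene was higher in sheared total RNA against Total RNA-Seq with DESeq2 or its size factors, no filter, the replicate block or the 4 libraries alone. The outer parts of 3 gave 3 lower 5′ shares for TT-Seq against 4sU-Seq. With a library left out, where a lone library is assumed to vary like the other groups, sheared total RNA against Total RNA-Seq had 0 to 2 higher and 0 to 4 lower (all genes 1710 to 3543 and 807 to 2233), the interaction 2 to 5 negative, S2P against N20 7 to 19 higher (all genes 3719 to 7401, and 2088 to 6821 lower), and the 5′ share of TT-Seq against 4sU-Seq 1 to 3 lower (all genes 719 to 1422, the lowest without TT-Seq replicate 1). Signs turned over the authors' units in TT-Seq against sheared total RNA for KIF23 (-1.27), CCNB1 (-0.16), CDK1 (-0.03), AURKA (-0.27), CENPA (-0.23), CENPE (-0.25), NUSAP1 (-0.95), PRC1 (-0.06) and HMMR (-0.80), in 4sU-Seq against Total RNA-Seq for CENPA (-0.32), CENPE (0.00), ECT2 (-0.15) and NUF2 (-0.16), and in TT-Seq against 4sU-Seq for KIF23 (-0.64), CENPF (-0.16) and HMMR (-0.22). They also turned with library size alone for CENPF in TT-Seq against 4sU-Seq (-0.16) and for KIF11 (-0.08) and ANLN (-0.46) in S2P against N20, without 4sU-Seq replicate 1 for MKI67 in 4sU-Seq against Total RNA-Seq (-0.23, and 0.21 without replicate 2), and over the outer parts for the 5′ share of MAD2L1 (-0.28) and BUB1 (0.52). Of all values of single genes, 1780 kept their call and direction with a library left out and 1250 under other settings, while 99 and 37 lost the call. The correlations of same-numbered libraries were low and cannot settle whether these libraries came from the same culture. The replicate block gave 16 higher and 12 lower for TT-Seq against sheared total RNA and 6 and 17 for 4sU-Seq against Total RNA-Seq. It gave 19 and 7 for TT-Seq against 4sU-Seq, 16 and 4 for the interaction and 12 and 0 for S2P against N20.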
